A study of Mus musculus with 15 samples.

Results

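GABA receptor subunits were examined in large sensory neurons of the mouse, as 7 genes among the 19938 genes that could be tested on the arrays. The genes were chosen by symbol, with earlier results of these data known. Gabra2, Gabra3, Gabra5, Gabrb2, Gabrg1 and Gabrg3 encode subunits of the GABA-A receptor, and Gabbr1 encodes a subunit of the GABA-B receptor. All 7 were measured, Gabrb2 by 3 probe sets and each of the others by 1. RNA came from neurons of the lumbar dorsal root ganglia, levels 2 to 5, hybridised to 15 Affymetrix whole-transcript arrays, with 3 biological replicates in each of 5 groups.

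The mice were of the C57BL/6 strain and were transgenic in every group, controls included, with green fluorescence driven by the promoter of the peptide CGRP. Neurons over 26.9 µm were sorted by that fluorescence and by a wheat germ agglutinin tracer, placed in the gastrocnemius muscle or at the saphenous nerve 5 days before the mice were killed. The CFA paw group held CGRP-positive neurons projecting to skin after complete Freund's adjuvant (CFA), an emulsion with killed mycobacteria that inflames tissue, was injected into the paw. Its control, saline paw, held the same kind of neurons after saline. The CFA muscle, acid muscle and saline muscle groups held CGRP-negative neurons projecting to muscle after CFA, acid or saline was injected into the muscle. Target tissue, tracer site, CGRP status and injection site therefore differ together between the paw and muscle groups and cannot be told apart. Sex, age, the time between injection and sorting and the number of mice per sample are not given in the sources used here.

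GABA is the main inhibitory transmitter of the adult brain and spinal cord. GABA-A receptors are chloride channels of 5 subunits, usually alpha, beta and gamma, and the alpha subunit shapes their pharmacology and placement. Sensory neurons keep chloride high through the importer encoded by Slc12a2, so that opening these channels depolarises their terminals, which underlies presynaptic inhibition in the spinal cord. GABA-B receptors are pairs of the Gabbr1 and Gabbr2 products that act through Gi and Go proteins, and in sensory neurons they damp calcium channels and transmitter release.

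The promoters of Gabbr1, Gabra2, Gabra5 and Gabrg1 are shown because the first 3 had higher mean levels in both paw groups than in every muscle group and the last had lower ones. Gabrg3 also had higher means in both paw groups, but only narrowly over saline muscle (2.45 in CFA paw and 2.44 in saline paw, against 2.43). Its promoter is not shown. The windows shown are RefSeq windows of build GRCm38.p6, from 250 bases before to 50 bases after the annotated start, written 5′ to 3′ on the gene's strand. They lie at chr17:37045716-37046015 on the plus strand for Gabbr1, and on the minus strand at chr5:71095800-71096099 for Gabra2, chr7:57510010-57510309 for Gabra5 and chr5:70842568-70842867 for Gabrg1. Capitals mark GC boxes, the letters GGGCGG on either strand.
Gabbr1: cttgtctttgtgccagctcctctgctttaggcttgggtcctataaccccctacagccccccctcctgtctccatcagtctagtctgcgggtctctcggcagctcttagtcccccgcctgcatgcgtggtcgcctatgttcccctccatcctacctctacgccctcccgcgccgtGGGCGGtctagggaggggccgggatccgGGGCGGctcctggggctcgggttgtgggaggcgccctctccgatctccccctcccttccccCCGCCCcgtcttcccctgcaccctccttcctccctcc
Gabra2: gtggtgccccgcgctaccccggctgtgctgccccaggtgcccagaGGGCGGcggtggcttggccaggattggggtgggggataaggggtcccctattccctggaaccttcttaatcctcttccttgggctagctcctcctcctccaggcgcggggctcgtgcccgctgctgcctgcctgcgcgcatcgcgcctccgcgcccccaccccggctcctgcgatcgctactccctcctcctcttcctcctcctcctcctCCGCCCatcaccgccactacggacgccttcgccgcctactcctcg
Gabra5: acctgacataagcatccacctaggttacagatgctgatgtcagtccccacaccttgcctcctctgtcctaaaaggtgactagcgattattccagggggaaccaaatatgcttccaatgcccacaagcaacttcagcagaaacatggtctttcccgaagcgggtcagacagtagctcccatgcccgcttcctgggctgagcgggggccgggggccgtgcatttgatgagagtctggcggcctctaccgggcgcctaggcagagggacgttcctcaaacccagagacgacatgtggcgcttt
Gabrg1: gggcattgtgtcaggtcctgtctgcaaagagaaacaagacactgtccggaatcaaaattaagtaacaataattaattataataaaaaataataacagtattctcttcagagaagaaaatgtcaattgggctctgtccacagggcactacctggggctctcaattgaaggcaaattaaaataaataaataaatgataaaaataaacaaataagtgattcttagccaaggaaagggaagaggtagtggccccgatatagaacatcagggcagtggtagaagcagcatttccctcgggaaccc
The Gabbr1 window held 3 GC boxes and the Gabra2 window 2, while the Gabra5 and Gabrg1 windows held 0. A GC box stood in 35.7% of the 32851 windows in the promoter table. The number of CG dinucleotides was 18 for Gabbr1, 25 for Gabra2, 13 for Gabra5 and 3 for Gabrg1, against a median of 7 over all windows. The half-site of the cyclic AMP response element (TGACG, either strand, in 20.8% of all windows) and TATAAA (either strand, in 13.6%) were found in none of these 4 windows. Gabrg1 and Gabra2 are neighbours in one cluster of GABA-A receptor genes, yet their windows differed in base composition, with a GC content of 38.3% for Gabrg1 and 70.0% for Gabra2. These matches are a description of letters and not of binding.

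All values are deposited log2 expression, so that a difference of 1 is a doubling. Levels of different genes are not set against each other, since each probe set has its own response. A level was called dim below 2.44, which 95% of 1194 olfactory and vomeronasal receptor genes did not exceed on average. Array medians ran from 2.65 to 2.92 over 35556 probe sets. The spread over genes within an array (SD) was 1.66 to 1.80 for every paw array but one, and 1.28 to 1.55 for the muscle arrays. The exception, saline paw replicate 1, showed 1.42 and correlated at no more than 0.945 with the other saline paw arrays, while those correlated at 0.991 with each other. The mean of 8 neuron markers was 9.47 to 9.52 on the CFA paw arrays and 8.55, 9.70 and 9.63 on the saline paw arrays, against 7.13 to 7.58 in CFA muscle, 7.03 to 8.54 in acid muscle and 7.26 to 7.88 in saline muscle. The CGRP gene Calca was not analysed here, but its relative Calcb followed the sort labels, at 7.50 ± 0.068 in CFA paw and 5.87 ± 0.16 in CFA muscle (SD, n = 3 each). Mrgprd, a marker of small non-peptidergic skin neurons, was at 5.29 ± 0.29 in CFA paw and 7.40 ± 0.24 in CFA muscle (SD, n = 3 each). The mean of the 8 measured non-peptidergic markers, Mrgprd included, was 4.67 to 4.81 in CFA paw and 5.32 to 5.59 in CFA muscle, but its members did not go one way, since Mrgpra3 was at 5.53 ± 0.33 in CFA paw and 3.78 ± 0.31 in CFA muscle (SD, n = 3 each). The mean of 6 measured Schwann cell markers was 4.81 to 5.02 in CFA paw and 5.01 to 6.05 in CFA muscle. In the same order, endothelial and mural cell markers had 3.04 to 3.10 and 3.42 to 3.82. Fibroblast markers had 3.61 to 3.68 and 3.95 to 4.28, and skeletal muscle markers 3.22 to 3.41 and 3.48 to 3.72. Macrophage markers, several of them dim, had 2.11 to 2.26 and 2.30 to 2.40. Satellite glia markers went the other way, at 5.80 to 5.95 and 5.56 to 5.71.

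**Figure D1:**
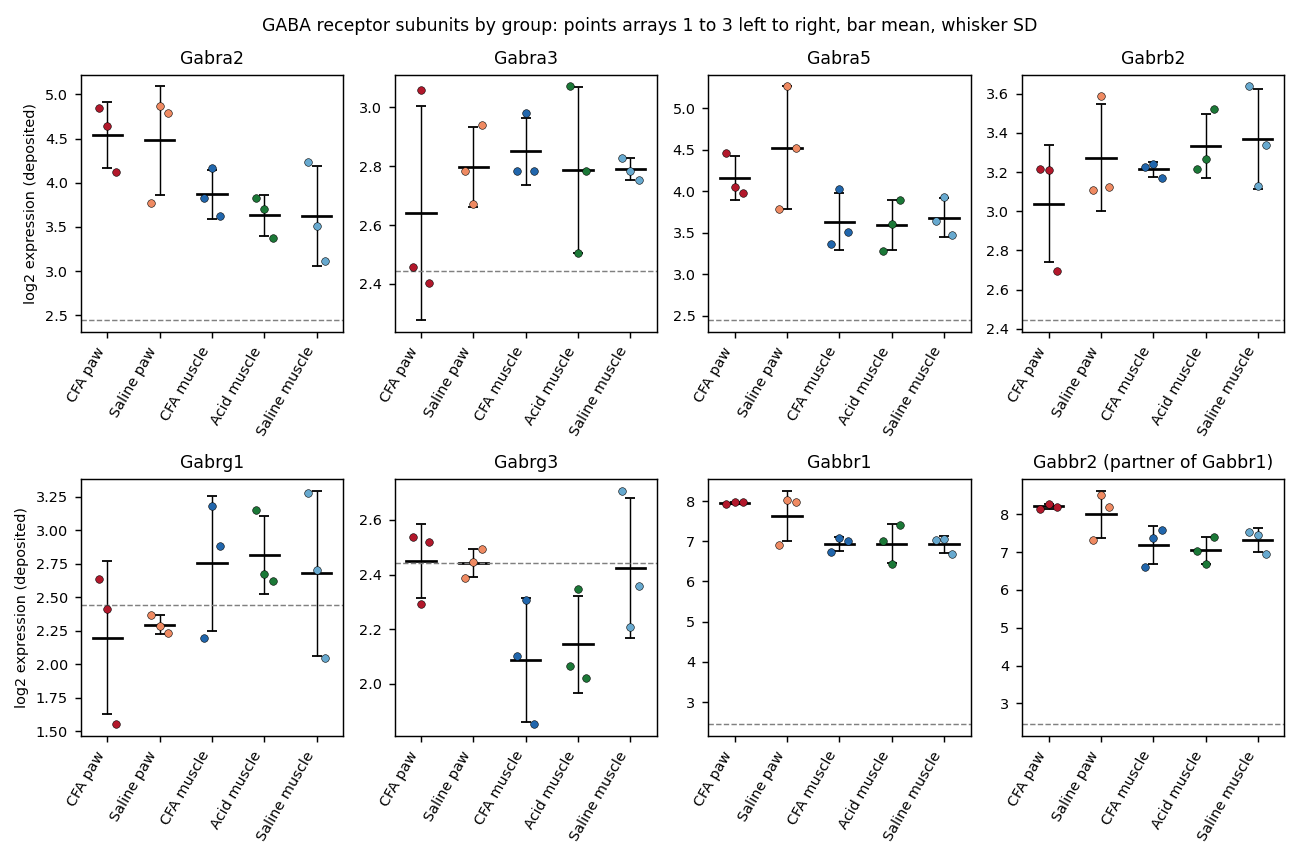
Deposited log2 expression of the 7 GABA receptor genes, and of Gabbr2 for comparison, with a panel per gene and its own vertical scale. Points are arrays 1 to 3 of a group from left to right, bars are means, whiskers are SDs, and the dashed line is the dim limit of 2.44. Gabbr1 sat at 7.92 to 7.98 in CFA paw, and at 6.74 to 7.07 in CFA muscle. Gabrg1 and Gabrg3 lay around the dim limit.

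Skin and muscle neurons were compared to see how the receptor genes differ between the 2 kinds of sorted afferents. After CFA, Gabbr1 was the one gene of the 7 that passed, with a level 2.02-fold higher in the skin neurons. It had 7.92, 7.97 and 7.98 in the CFA paw arrays and 6.74, 7.07 and 7.01 in the CFA muscle arrays. All CFA paw arrays lay above all CFA muscle arrays, and the CFA paw values lay within 0.1 of each other. The log2 difference was 1.02 (SE 0.275, limma adjusted p = 0.0409). Of all genes tested, 5.75% passed as higher and 0.667% as lower in this comparison, 6.41% in either direction, and 20.8% had an unadjusted p under 0.05, as 2 of the 7 receptor genes did (Gabbr1 and Gabrg3). All CFA paw arrays lay above all CFA muscle arrays for 18.9% of genes and below them for 17.1%, and among the 7 for Gabbr1 alone. The count of 1 in 7 is read against that background, and it is not shown to be particular to this family.

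The size of the Gabbr1 difference depended on the scaling of the arrays and on the covariates in the fit. It was 0.33 after quantile normalization (limma adjusted p = 0.135), 0.20 when the fit held the SD of the arrays as a term (limma adjusted p = 0.613) and −0.45 with the mean of the 8 neuron markers as a covariate, a setting added after seeing the data (limma adjusted p = 0.528). Neither covariate overlapped between these groups. Array SD was 1.66 to 1.74 in CFA paw and 1.37 to 1.47 in CFA muscle, and the neuron marker mean 9.47 to 9.52 and 7.13 to 7.58. Both estimates therefore extend a slope seen within groups across a gap, and cannot separate covariate from group. Without any 1 of the CFA paw or CFA muscle arrays the Gabbr1 difference ran from 0.92 to 1.08, and the adjusted p from limma ran from 0.0781 to 0.162. It also missed the threshold without acid muscle replicate 1 (0.0551), saline muscle replicate 1 (0.0552) or saline muscle replicate 2 (0.0564), which enter through the shared spread.

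**Figure D2:**
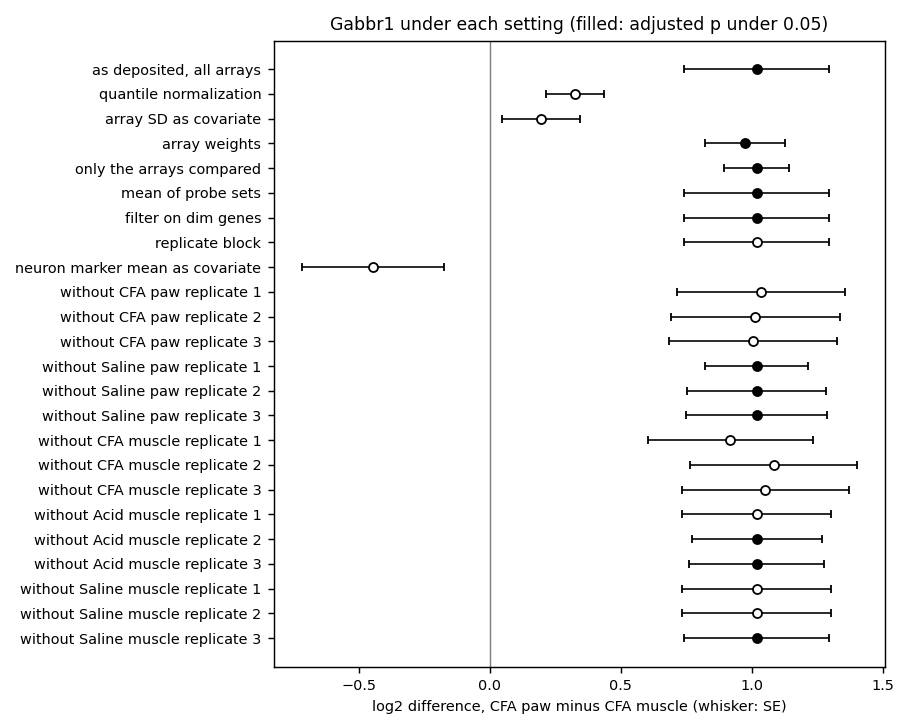
Log2 difference of Gabbr1, CFA paw minus CFA muscle, in each setting, with points as estimates, whiskers as SEs and filled points for an adjusted p under 0.05. The estimate was 1.02 as deposited, 0.33 after quantile normalization, 0.20 with array SD as a term in the fit and −0.45 with the neuron marker mean as one.

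After saline, Gabbr1 had 6.90, 8.02 and 7.97 in the saline paw arrays and 7.04, 7.06 and 6.69 in the saline muscle arrays. Saline paw replicate 1 lay among the muscle values and the other saline paw arrays lay above all of them. The log2 difference was 0.70 (SE 0.275, limma adjusted p = 0.211), and it was 1.07 without saline paw replicate 1 (limma adjusted p = 0.00459) and 0.51 to 0.77 without any other array of either group, none of which passed. In this comparison 1.87% of all genes passed as higher and 0.171% as lower, 2.04% in either direction, and 0 of the 7 receptor genes did in limma, with 3 at an unadjusted p under 0.05 where 16.9% of all genes had one. These 3 were Gabbr1, Gabra2 and Gabra5. The groups overlapped for all 7, while 8.11% of all genes were higher and 7.06% lower without overlap.

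Gabra2 encodes the alpha2 subunit, the common synaptic alpha subunit of the spinal dorsal horn. It had 3.77, 4.87 and 4.79 in the saline paw arrays and 4.23, 3.51 and 3.12 in the saline muscle arrays. Here too replicate 1 of saline paw lay within the muscle range. The skin neurons differed by 0.86 (SE 0.315, limma adjusted p = 0.182), and it was 1.21 without saline paw replicate 1 (limma adjusted p = 0.00948) and 0.61 to 1.17 without any other array of either group, none of which passed. After CFA, Gabra2 had 4.85, 4.64 and 4.13 in the CFA paw arrays and 3.82, 4.16 and 3.62 in the CFA muscle arrays, and the groups overlapped by 1 array on each side. This was a log2 difference of 0.67 (95% interval −0.0053 to 1.34, limma adjusted p = 0.243).

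Gabra5 encodes the alpha5 subunit, typical of extrasynaptic receptors that carry tonic current. It had 3.79, 5.26 and 4.53 in the saline paw arrays and 3.64, 3.93 and 3.48 in the saline muscle arrays. Its spread in saline paw (SD 0.74) was the widest in any group among the probe sets used for the 7 genes. Gabra5 differed by 0.84 on the log2 scale (SE 0.303, limma adjusted p = 0.174), and it was 1.21 without saline paw replicate 1 (limma adjusted p = 0.00564) and 0.47 without saline paw replicate 2 (limma adjusted p = 0.615). After CFA the levels were 4.46, 4.05 and 3.97 in the CFA paw arrays and 3.37, 4.02 and 3.51 in the CFA muscle arrays. Only CFA muscle replicate 2 reached the CFA paw values, and the log2 difference was 0.53 (SE 0.303, limma adjusted p = 0.343).

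With the neuron marker mean as a covariate, the saline paw minus saline muscle differences were 0.23 for Gabra2, −0.14 for Gabra5 and −0.55 for Gabbr1, with limma adjusted p from 0.361 to 0.916. With array SD as the covariate instead they were 0.33 for Gabra2, 0.27 for Gabra5 and 0.012 for Gabbr1. After CFA the difference was 0.034 for Gabra2 and −0.16 for Gabra5 with the array SD, and −0.075 for Gabra2 and −0.62 for Gabra5 with the neuron marker mean, and none of these passed. The neuron marker means of paw and muscle arrays did not overlap in either comparison, nor did array SD after CFA. Such covariate values extend a slope across a gap between groups and cannot separate covariate from group. In bulk samples, fewer neurons in a sort and less RNA per neuron cannot be told apart. The lower neuron marker levels on the muscle arrays move with these 3 genes, and their part in the differences was not tested beyond these covariates.

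Gabrg1 encodes the gamma1 subunit, which gives receptors of weak benzodiazepine response. It had mean levels of 2.20 ± 0.57 in CFA paw and 2.76 ± 0.50 in CFA muscle (SD, n = 3 each), and of 2.29 ± 0.070 in saline paw and 2.68 ± 0.62 in saline muscle (SD, n = 3 each). Both paw means lay under the dim limit. The log2 differences were −0.56 after CFA (SE 0.328, limma adjusted p = 0.356) and −0.38 after saline (SE 0.328, limma adjusted p = 0.582), so that neither passed. The size of both varied with single arrays, though neither changed sign: the difference after CFA was −0.23 without CFA paw replicate 3, −0.34 without CFA muscle replicate 2 and −0.83 without CFA muscle replicate 1. After saline it was −0.082 without saline muscle replicate 1 and −0.70 without saline muscle replicate 3. Gabra4 and Gabrb1, the other genes of this cluster, lay under the dim limit in all 5 groups, as did Gabra6.

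Gabrg3, which encodes the gamma3 subunit and is a neighbour of Gabra5, had 2.54, 2.29 and 2.52 in the CFA paw arrays and 2.10, 2.31 and 1.85 in the CFA muscle arrays. The groups overlapped narrowly, with a log2 difference of 0.36 (95% interval 0.021 to 0.70, limma adjusted p = 0.210), and after saline it was 0.018 (SE 0.16). The mean lay under the dim limit in 4 of the 5 groups and at 2.45 in CFA paw, so the size of the difference is uncertain.

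Gabra3, which encodes the alpha3 subunit, and Gabrb2, which encodes the beta2 subunit, did not pass in either comparison of skin with muscle neurons. Gabra3 differed by −0.21 after CFA (95% interval −0.60 to 0.18) and by 0.0088 after saline (−0.38 to 0.39). The same value of 2.78 stood on 5 of the 15 arrays for Gabra3, so its spread is not a fair measure of error. The Gabrb2 probe set used differed by −0.17 after CFA (−0.57 to 0.22) and by −0.094 after saline (−0.49 to 0.30). These intervals still leave room for differences of up to about 1.5-fold.

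**Figure D3:**
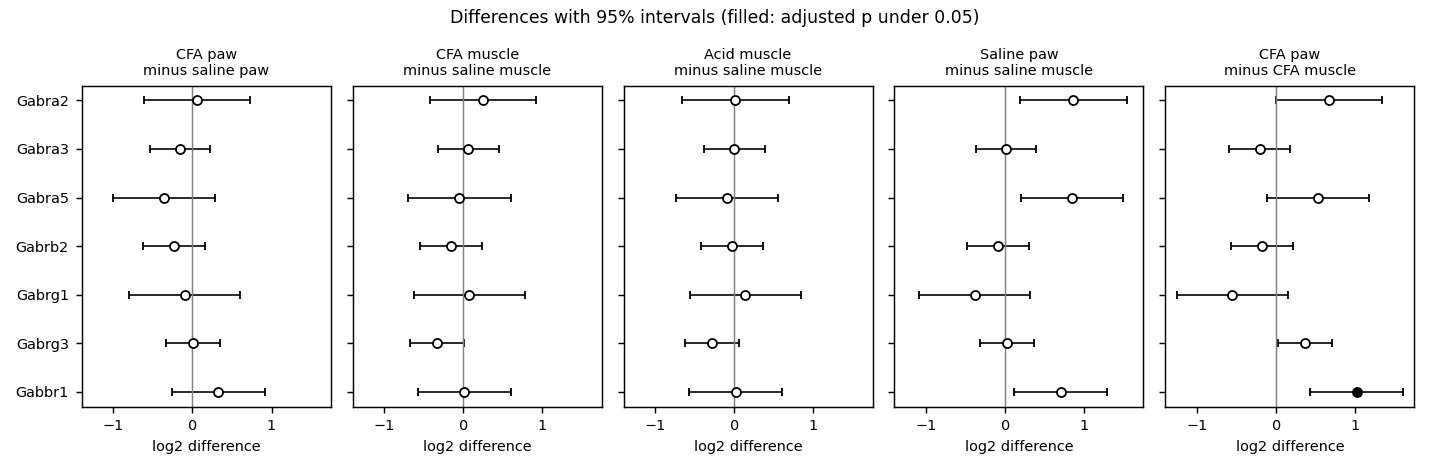
Log2 differences of the 7 receptor genes in 5 comparisons, with points as estimates from limma, whiskers as 95% intervals and filled points for an adjusted p under 0.05. Gabbr1 in CFA paw minus CFA muscle, at 1.02, is the filled point. The 3 comparisons of an injected agent with saline hold 0 as a possible value for each gene.

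The Gabrb2 probe sets disagreed. The probe set used, with the highest mean, had 3.21, 3.21 and 2.69 in CFA paw and 3.23, 3.24 and 3.17 in CFA muscle. A second one had 3.29, 3.41 and 2.88 in CFA paw and 2.59, 2.60 and 2.72 in CFA muscle, without overlap and in the opposite direction. The last had 2.52, 2.82 and 2.33 in CFA paw and 1.82, 2.23 and 2.50 in CFA muscle. The second probe set had an SD of 0.83 within saline muscle and 0.74 within saline paw, so the direction for Gabrb2 is not settled.

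**Figure D4:**
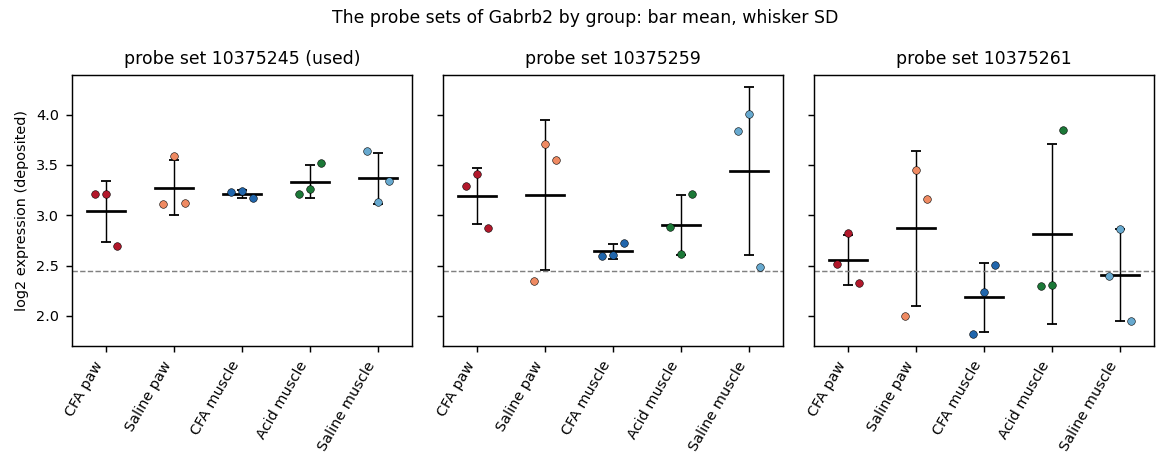
Deposited log2 expression of the 3 Gabrb2 probe sets by group, with points as arrays 1 to 3 from left to right, bars as means, whiskers as SDs and the dashed line as the dim limit. The probe set used ran from 2.69 to 3.64 over all arrays, and the others varied more within saline paw and saline muscle.

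CFA paw was set against saline paw to ask whether skin inflammation altered the receptor genes in skin neurons. None of the 7 passed, in a comparison where 0% of all genes passed in limma and 1.21% had an unadjusted p under 0.05, as 0 of the 7 did. The groups overlapped for all 7, while 1.73% of all genes were higher and 2.99% lower without overlap. Gabbr1 had 7.92, 7.97 and 7.98 in the CFA paw arrays and 6.90, 8.02 and 7.97 in the saline paw arrays. The log2 difference of 0.33 (SE 0.275, limma adjusted p = 1.00) dropped to −0.037 when saline paw replicate 1 was left out and lay at 0.31 to 0.52 without any other array of either group. Gabra5 had the largest negative difference, −0.36 (95% interval −1.01 to 0.28), and leaving out single saline paw arrays gave −0.73 (replicate 1), 0.0051 (replicate 2) and −0.36 (replicate 3). Gabra2 differed by 0.059 (−0.62 to 0.73), and by −0.29 without saline paw replicate 1. Gabrb2 differed by −0.23, Gabra3 by −0.16, Gabrg1 by −0.096 and Gabrg3 by 0.0067. The intervals of all but Gabra3 and Gabrg3 were wide enough to hold a change of 1.5-fold on one side or the other, so changes of that size are not excluded.

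In muscle neurons the question was asked for CFA and for acid, and 0 of the 7 genes passed in either comparison with saline muscle, which share the control arrays. In both, 0% of all genes passed in limma, and 2.6% of all genes for CFA and 2.85% for acid had an unadjusted p under 0.05, with 0 of the 7 receptor genes in each. All 7 overlapped with saline muscle in both, where without overlap 3.63% of all genes were higher and 4.1% lower after CFA, and 3.98% higher and 2.94% lower after acid. Gabbr1 had 6.74, 7.07 and 7.01 in CFA muscle and 7.00, 6.43 and 7.40 in acid muscle, against 7.04, 7.06 and 6.69 in saline muscle. The 3 means lay between 6.93 and 6.94, closer to each other than the arrays of any 1 group. The log2 difference was 0.012 for CFA (95% interval −0.58 to 0.60) and 0.017 for acid (−0.57 to 0.61).

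Gabrg3 had the smallest p of the 7 in both muscle comparisons. It had 2.10, 2.31 and 1.85 in CFA muscle and 2.07, 2.35 and 2.02 in acid muscle, against 2.71, 2.21 and 2.36 in saline muscle. All 3 group means lay under the dim limit, and the ranges overlapped. The log2 differences were −0.34 for CFA (SE 0.16, unadjusted p = 0.0522 and adjusted p = 1.00 in limma) and −0.28 for acid (SE 0.16, unadjusted p = 0.101 and adjusted p = 1.00 in limma). For the others the differences ran from −0.15 for Gabrb2 to 0.25 for Gabra2 after CFA, and from −0.091 for Gabra5 to 0.14 for Gabrg1 after acid. These take the Gabrb2 probe set used. Its second probe set had means of 2.64 in CFA muscle, 2.90 in acid muscle and 3.44 in saline muscle (SD 0.83 in saline muscle). The last one had 2.19, 2.82 and 2.40 in that order (SD 0.89 in acid muscle), so the Gabrb2 change is not settled here either.

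CFA muscle set against acid muscle gave differences from −0.12 for Gabrb2 to 0.24 for Gabra2, and 0 of the 7 passed in limma. None of the 7 had an unadjusted p under 0.05, which 3.14% of all genes had, and all 7 overlapped, while 2.92% of all genes were higher and 5.23% lower without overlap. The CFA effect in muscle minus that in paw ran from −0.34 for Gabrg3 (SE 0.226) to 0.31 for Gabra5 (SE 0.428). In limma 0 of the 7 receptor genes and 0% of all genes passed for this difference, while 1.63% of all genes and 0 of the 7 had an unadjusted p under 0.05. The SEs here are wider than in the single comparisons, for which they lay between 0.16 and 0.328.

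The rest of the GABA system was described from lists of 69 other genes, of which 63 were measured. In CFA paw against CFA muscle 9 of the 63 were higher and 0 lower in limma, where 5.75% of all genes were higher and 0.667% lower. The 63 genes' median log2 difference was 0.012, against −0.041 over all genes tested. Without any 1 of the CFA paw or CFA muscle arrays, 1 to 5 of the 63 passed. After saline 1 of the 63 was higher and 0 were lower, where 1.87% of all genes were higher and 0.171% lower. The gene was Nlgn2 (log2 difference 1.07, SE 0.251, limma adjusted p = 0.0444). In the treatment comparisons 0 of the 63 and 0% of all genes passed in limma. At an unadjusted p under 0.05 there were 2 in CFA paw (over saline paw), 2 in CFA muscle and 3 in acid muscle (each over saline muscle), and 4 when the last pair of agents was compared directly. The shares of all genes were 1.21%, 2.6%, 2.85% and 3.14% in that order.

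Gabbr2, the obligate partner of Gabbr1, had 8.15, 8.27 and 8.19 in the CFA paw arrays and 6.62, 7.37 and 7.58 in the CFA muscle arrays. All CFA paw arrays lay above all CFA muscle arrays. The log2 difference was 1.02 (SE 0.301), close to that of Gabbr1, and missed the threshold (limma adjusted p = 0.0602). After saline it was 0.69 (SE 0.301, limma adjusted p = 0.262), with 7.31, 8.52 and 8.19 in saline paw and 7.52, 7.46 and 6.96 in saline muscle.

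Among 16 measured partners and effectors of GABA-B receptors, 4 were higher and 0 lower in CFA paw than in CFA muscle, with a median of 0.30. All CFA paw arrays lay above all CFA muscle arrays for 9 of the 16, against 18.9% of all genes. They lay below for Kcnj9, near the dim limit, and for 17.1% of all genes. Gnao1, the alpha subunit of Go, had 10.3 ± 0.086 in CFA paw and 8.69 ± 0.21 in CFA muscle (SD, n = 3 each, difference 1.58, limma adjusted p = 0.0189). Gnai2, an alpha subunit of Gi, differed by 1.30, Cacna1b, the N-type calcium channel that GABA-B receptors inhibit, by 1.13, and Kcnj3, a potassium channel opened by G proteins, by 1.08. The auxiliary subunit gene Kctd16 differed by 0.68 (limma adjusted p = 0.259) and Kctd12 by −0.14.

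Of 17 measured genes of GABA-A receptor trafficking and scaffolds, 4 were higher and 0 lower in CFA paw, with a median of 0.53. Of the 17, 12 were higher without overlap, against 18.9% of all genes. Hap1 and Plcl1 were lower without overlap, as were 17.1% of all genes. Both counts of 4 stand beside the 5.75% of all genes that passed as higher and the 0.667% that passed as lower. Nlgn2, an adhesion protein of inhibitory synapses, had 6.83 ± 0.19 in CFA paw and 5.14 ± 0.037 in CFA muscle (SD, n = 3 each, difference 1.69, limma adjusted p = 0.00152). Gabarap, which binds GABA-A receptors and also serves autophagy, differed by 1.40, Trak1, a mitochondrial transport adaptor, by 1.06 and Gphn, the scaffold gephyrin, by 1.01. Of the 7 delta, epsilon, pi, theta and rho subunit genes 0 passed in limma, with differences from −0.38 for Gabrd to −0.011 for Gabrr2. An unadjusted p under 0.05 was found for 0 of them and for 20.8% of all genes.

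Of 11 measured chloride transporters, channels and their kinases 1 was higher, Wnk1 (1.20, limma adjusted p = 0.0495), where 5.75% of all genes were. Slc12a2, the chloride importer of sensory neurons, was at 5.69 ± 0.16 in CFA paw and 6.07 ± 0.26 in CFA muscle (SD, n = 3 each), a difference of −0.39 that did not pass (limma adjusted p = 0.507). The exporter gene Slc12a5 lay at 2.45 in CFA paw and 2.74 in CFA muscle, near the dim limit. Of 8 genes of GABA synthesis, breakdown and transport 0 passed in limma, with 2 at an unadjusted p under 0.05, which 20.8% of all genes had. Under the neuron marker covariate 0 of the 63 genes passed in limma in CFA paw against CFA muscle.

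**Figure D5:**
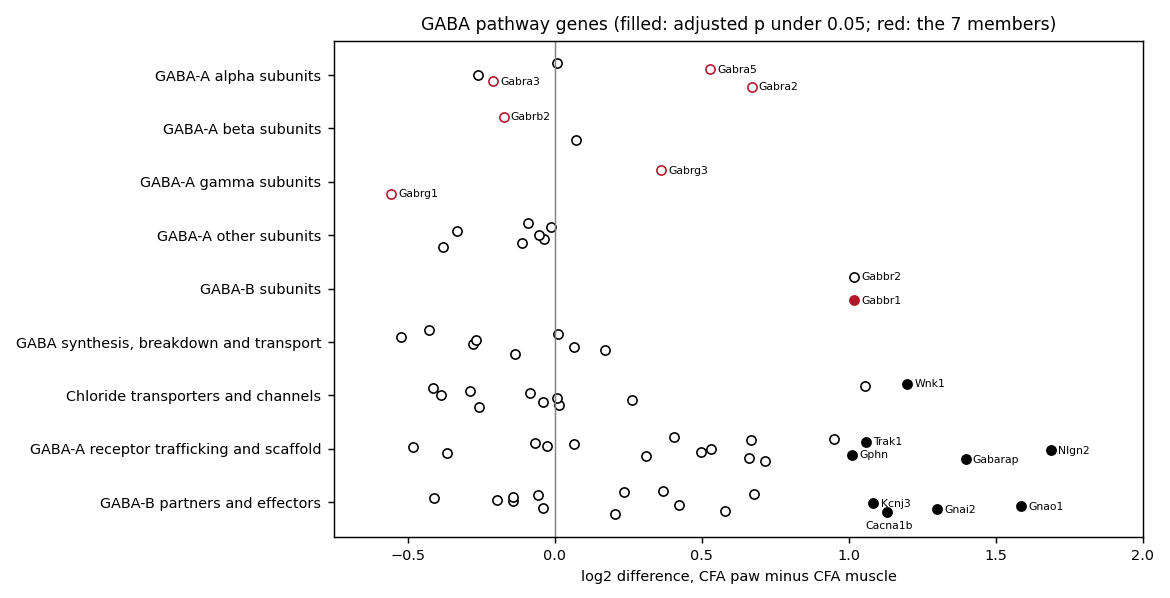
Log2 differences of the measured GABA system genes, CFA paw minus CFA muscle, by list, with red points for the 7 receptor genes and filled points for an adjusted p under 0.05 in limma. Gabbr1 and Gabbr2 stand together at 1.02. The genes past the threshold among the others run from 1.01 for Gphn to 1.69 for Nlgn2.

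The 7 genes varied unequally over the 15 arrays. The SD over all arrays was 0.56 for Gabra2, 0.55 for Gabbr1, 0.52 for Gabra5 and 0.47 for Gabrg1, against a median of 0.25 over all genes tested, and it was 0.20 to 0.23 for Gabra3, Gabrb2 and Gabrg3. For the first 4, the genes of most similar pattern were found by the root mean square difference over the 15 arrays after each gene's own mean was subtracted. Those nearest to Gabbr1 were Ndc1 (0.0909), St8sia3 (0.106) and Agfg1 (0.107), while Gabbr2, looked up after its values were seen, ranked 121 of 19937 genes (0.185). Those nearest to Gabra2 were Nqo2 (0.192), Vcl (0.196) and Glud1 (0.197). Those nearest to Gabra5 were Ift122 (0.178), Frrs1l (0.205) and Clstn3 (0.206), and those nearest to Gabrg1 were Erbb3 (0.271), Insig2 (0.274) and Jam3 (0.289). The likeness to Gabbr1 was the closest and that to Gabrg1 the loosest of the 4.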

How the data were processed

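Expression was measured on 15 arrays, 3 per group. The authors deposited log2 values for each probe set, made with RMA and Partek, per the submitters' processing notes, with no version. The log base is not stated and was taken as 2 from the range. Groups came from the sample titles. By the platform annotation, 21789 of 35556 probe sets had 1 gene symbol, 1621 had several and 12146 were unnamed here, and the probe set with the highest mean was used per gene. In R 4.3.3, limma 3.58.1 was fitted to all 15 arrays with 5 group means and moderated variances. All tests are two-sided, with Benjamini-Hochberg adjustment over 19938 genes and a threshold of 0.05. The submitters call the replicates biological, without saying whether each is a separate mouse, so p-values measure the spread between these samples. The members and lists were chosen with earlier results of these data known. All 7 members are named in each comparison. Other genes are named where they passed, where they are further receptor subunits, or after their values were seen (Slc12a2, Slc12a5, Kctd12, Kctd16, Gabrd, Gabrr2, Kcnj9, Hap1, Plcl1). The fit was checked on simulated data. The number of arrays limits the precision. Alternatives were quantile normalization, array SD or neuron markers as covariates, array weights, subsets of arrays, probe set means, a dim filter and the replicate block, and the neuron marker covariate was chosen after seeing the data.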

Additional observations from a re-analysis of the deposited data

How the results depend on the processing

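Over the 7 comparisons, 1127 values of the 7 receptor genes were recomputed, 735 of them with an array left out. Of these 1019 kept their direction and their side of the threshold, and 86 changed sign while the 95% interval held 0 both times. The rest crossed the threshold or reversed. Leaving out an array outside a comparison cannot change its difference, only its p-value. The same holds for the dim filter, the replicate block and a fit of the compared arrays alone. Much of this agreement was therefore fixed in advance, and the counts do not measure robustness. In CFA paw against CFA muscle, where 1 receptor gene passed, 0 passed after quantile normalization, with a covariate for array SD or neuron marker mean, and with the replicate block, and 2 passed with array weights. With those weights 4054 of all 19938 genes passed. Without 1 array the count of receptor genes ran from 0 to 1. The neuron marker covariate reversed Gabbr1 there (−0.45) and turned the sign of Gabra5 (−0.62) and Gabra2 (−0.075), whose intervals held 0 in both fits, and in saline paw against saline muscle it reversed Gabbr1 (−0.55) and Gabra5 (−0.14). Those values extend a slope across groups whose neuron marker means did not overlap. In saline paw against saline muscle 3 receptor genes passed with array weights, as did 7379 of all 19938 genes. The weights of saline paw replicates 1 to 3 were 0.148, 0.959 and 7.18, so that fit leaned on replicate 3. From 0 to 3 receptor genes passed without 1 array, the 3 being without saline paw replicate 1, where 3824 of all genes passed. The replicate block left the Gabbr1 difference at 1.02 with limma adjusted p = 0.0526, and it changed no other call of a receptor gene. Same-numbered CFA paw and CFA muscle arrays correlated in their deviations at −0.117, 0.0581 and −0.0846. The sources used here do not say whether the numbers mark a shared day or animal, and these correlations cannot decide it.

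Over all genes, 1146 were higher and 133 lower in CFA paw than in CFA muscle, against 608 and 155 after quantile normalization, 232 and 212 with the array SD and 2 and 24 with the neuron marker mean, where the median of all genes lay at 0.083 in place of −0.041. After saline 373 were higher and 34 lower, against 254 and 93 after quantile normalization, 164 and 206 with the array SD and 2 and 52 with the neuron markers. In limma, saline paw against saline muscle had 0 calls in a fit of those arrays alone, with 2261 genes at an unadjusted p under 0.05, and 3824 calls without saline paw replicate 1. CFA paw against CFA muscle had 3209 calls in a fit of those arrays alone, against 1279. CFA paw against saline paw had 0 calls as deposited and 125 with array weights, 32 higher and 93 lower, with no receptor gene among them. Of the other 63 GABA system genes, 9 passed in CFA paw against CFA muscle, against 4 after quantile normalization, 2 with the array SD, 22 with array weights, 17 in a fit of those arrays alone and 0 with the neuron markers, and from 1 (without CFA paw replicate 3) to 15 (without saline paw replicate 1) with an array left out. After saline 1 passed, against 25 with array weights, and 0 to 14 with an array left out, the 14 being without saline paw replicate 1.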
